A study of Mus musculus with 11 samples.

Results

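Transcripts for 7 genes that move sodium and water across the wall of the early mouse embryo were followed in single 8-cell embryos. They were chosen by name for their roles in cavitation, the filling of the blastocyst cavity: Atp1b1 and Atp1b3 of the sodium pump, the sodium/hydrogen exchanger Slc9a3, and the water channels Aqp3, Aqp8, Aqp9 and Aqp11. All 7 were matched by Ensembl identifier to a row of the gene tables, which hold 54146 genes. The comparison asks which of them are already transcribed a day before the cavity forms, and whether their level differs in embryos that lack Prdm10.

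The data were 11 Smart-seq2 libraries, each from 1 whole C57BL/6 embryo collected at E2.5 after natural mating of Prdm10Δ/+ parents. The 6 controls were Prdm10 WT/HET, a mix of wild-type and heterozygous embryos that the labels do not separate. The 5 mutants were Prdm10 KO, with exon 5 deleted on both alleles, and embryos had been assigned by detection of that exon in their own cDNA. The deleted allele came from mice crossed to an ACTB-Cre line, so the deletion was present in every cell, and all embryos had mothers with 1 deleted allele. PRDM10 is a zinc finger protein that binds DNA. Batch 1 (3 controls, 2 mutants) received 16 cycles of PCR pre-amplification and batch 2 (3 controls, 3 mutants) 13 cycles, and the embryos of each batch were isolated and processed together. Cycle number and every other difference between the batches cannot be told apart. Litters are not labelled, so errors and p-values refer to the spread between embryos.

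During cavitation the outer cells become an epithelium. The Na/K-ATPase, built from a catalytic alpha and a glycosylated beta subunit, pumps sodium out through the basolateral membrane, sodium enters at the apical side in part through Na/H exchangers, and water follows the resulting gradient through aquaporins into the cavity. The beta subunit is needed for the alpha subunit to fold and reach the membrane. Aqp3 and Aqp9 also carry glycerol and other small solutes, Aqp8 carries water, and Aqp11 is an intracellular relative of the family.

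The summed expected counts were 3534735 to 8265840 per library. The targeted gene Prdm10 averaged 16.5 ± 4.62 TPM over the 6 controls and 6.66 ± 1.47 TPM over the 5 mutants (SD), and the mutants (highest 8.16) lay below all 6 controls (lowest 11.1). In normalised counts the groups overlapped, and RSEM gave the gene an effective length of 4348 to 5051 bases in mutants and 2565 to 3357 in controls. In counts DESeq2 gave a log2 fold change of -0.66 (SE 0.26, adjusted p 0.215). All 8 markers of the 8-cell blastomere were at 1 TPM or more in every control, against 2 of 7 markers of the later trophectoderm, the epithelium that carries these transporters at cavitation. Markers of tissues outside the embryo differed between batches. The oviduct list (4 genes) summed to 0 to 0.91 TPM in batch 1 and 1.59 to 32.0 TPM in batch 2, nearly all of it Ovgp1, an oviduct secretory glycoprotein, with Foxj1 and Pax8 at 0 in every library of batch 1. The blood list (5 genes) summed to 8.76 to 14.1 TPM in batch 1 and 17.2 to 137 TPM in batch 2. That rise was mainly in Lyz2 (0 to 0.59 TPM in batch 1, 9.77 to 121 in batch 2), while Cd68, the 1 gene of the list expressed in all controls, had a batch log2 difference of -0.82 (DESeq2 adjusted p 0.201). In the cumulus and granulosa list (9 genes), Amhr2 was at 42.9 to 80.9 TPM in batch 1 and 19.3 to 30.5 in batch 2, and the defining genes Foxl2 and Fshr were at 0 to 0.08 TPM. Inha and Inhba of that list were at 7.83 and 3.08 TPM in mutant replicate 2 and at 0 in the other 10 libraries.

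The start regions of 4 of the genes are printed below, since they pair an abundant with an undetected transcript, once among the pump and exchanger genes and once among the water channels. Each is 300 bases of RefSeq sequence (GRCm38.p6), from 250 before to 50 after the annotated start, read 5′ to 3′ on the gene's own strand, with every CG dinucleotide in capitals. CG is its own reverse complement, so both strands hold the same count. Atp1b3 spans chr9:96364382-96364681 on the minus strand, Slc9a3 chr13:74121163-74121462 on the plus strand, Aqp9 chr9:71163240-71163539 on the minus strand, and Aqp8 chr7:123462044-123462343 on the plus strand.
Atp1b3: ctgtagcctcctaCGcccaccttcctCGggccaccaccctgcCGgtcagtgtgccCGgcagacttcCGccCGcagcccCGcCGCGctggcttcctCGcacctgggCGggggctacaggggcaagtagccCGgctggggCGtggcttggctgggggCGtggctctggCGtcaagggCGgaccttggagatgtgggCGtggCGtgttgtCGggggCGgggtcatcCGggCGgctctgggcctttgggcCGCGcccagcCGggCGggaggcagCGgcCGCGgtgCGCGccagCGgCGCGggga
Slc9a3: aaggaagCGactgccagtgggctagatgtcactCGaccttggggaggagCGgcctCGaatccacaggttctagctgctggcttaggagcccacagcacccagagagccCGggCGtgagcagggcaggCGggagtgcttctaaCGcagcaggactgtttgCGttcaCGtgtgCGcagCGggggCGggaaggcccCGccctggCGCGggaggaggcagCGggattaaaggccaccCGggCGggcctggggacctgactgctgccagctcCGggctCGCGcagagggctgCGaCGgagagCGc
Aqp9: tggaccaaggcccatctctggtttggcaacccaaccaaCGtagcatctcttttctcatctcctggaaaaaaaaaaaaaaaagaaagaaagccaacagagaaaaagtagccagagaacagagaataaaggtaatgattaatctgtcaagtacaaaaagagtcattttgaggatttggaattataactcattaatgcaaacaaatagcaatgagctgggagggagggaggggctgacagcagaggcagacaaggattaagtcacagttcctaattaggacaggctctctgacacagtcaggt
Aqp8: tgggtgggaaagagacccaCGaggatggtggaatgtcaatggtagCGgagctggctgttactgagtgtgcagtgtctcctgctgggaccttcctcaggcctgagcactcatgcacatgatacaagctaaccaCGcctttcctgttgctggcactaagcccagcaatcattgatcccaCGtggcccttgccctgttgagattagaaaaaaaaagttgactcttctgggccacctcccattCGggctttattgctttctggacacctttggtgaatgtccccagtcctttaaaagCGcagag
The Atp1b3 window held 34 CG, more than 92.3% of 32851 such windows, and the Slc9a3 window held 25, more than 81.6%. The Aqp9 window held 1, more than only 5.43% of windows, and the Aqp8 window held 6, more than 43.6%. The median window held 7, and 94.6% held at least 1. Windows of the other members held 31 (Atp1b1), 27 (Aqp11) and 21 (Aqp3). A high count thus went with the most abundant member and with an undetected one, and Aqp9, second by median TPM, had the lowest count. Further start sites of Atp1b3 and Aqp9 held 39 and 4. For the Slc9a3 window and the further Atp1b3 window, the 50 bases from the RefSeq start on were not found in a GENCODE transcript.

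At E2.5, 5 of the 7 genes were expressed, defined as a TPM of at least 1 in all 6 control embryos. TPM, an abundance scaled to one total per library, corrects for gene length, so it was used to compare genes with each other. Atp1b3 was the highest, followed by Aqp9, Aqp11, Aqp3 and Atp1b1, while Slc9a3 and Aqp8 were at or near 0. The plot of levels by embryo shows this order over about 8 units of log2(TPM + 1).

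**Figure D1:**
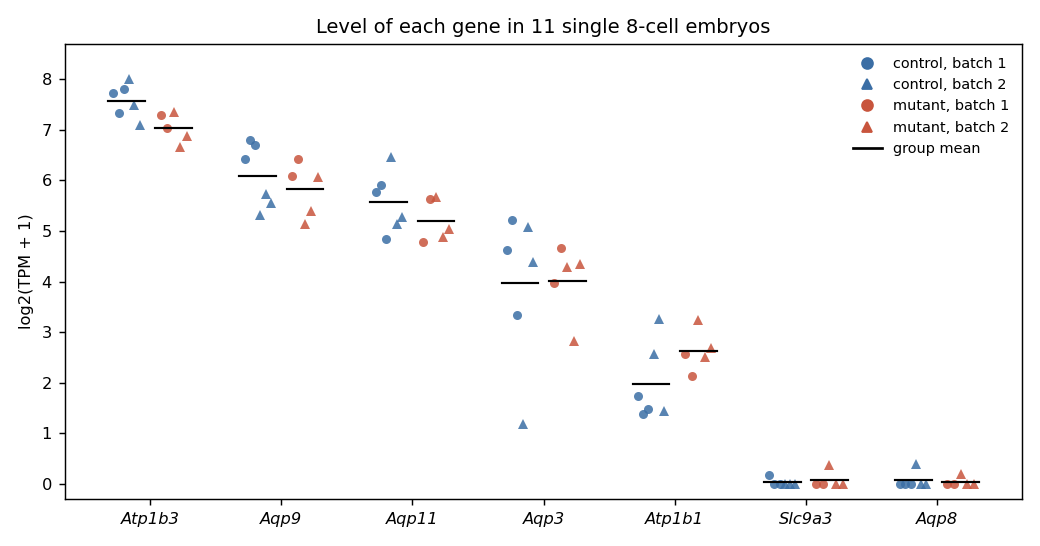
Level of the 7 genes as log2(TPM + 1) in each of 11 embryos, controls in blue and mutants in red, circles for batch 1 and triangles for batch 2, with a black line at each group mean of the log values. Atp1b3 lies above every other gene in all embryos, Slc9a3 and Aqp8 lie at or near 0, and Aqp3 has the widest spread.

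Atp1b3 (ENSMUSG00000032412.8, chromosome 9 from 96332655 to 96364442, minus strand, GRCm38) encodes the beta 3 subunit of the pump. Its TPM in controls was 135 at the lowest, 195 at the median and 255 at the highest. In the 5 mutants it was 163, 101, 117, 155 and 130 TPM. Its median control level ranked 764th of 54146 genes and above 90.6% of the 8094 genes expressed in all controls.

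Atp1b1 (ENSMUSG00000026576.12, chromosome 1 from 164437109 to 164458355, minus strand) encodes the beta 1 subunit, the beta isoform of most adult epithelia. It was low in every embryo, with 1.60, 2.06 and 8.62 TPM as the lowest, median and highest control. The mutants had 8.47, 4.72, 5.41, 4.95 and 3.38 TPM. Only 1.33% of the genes expressed in all controls had a lower median. Its TPM in control replicate 5 rests on 4.10 expected counts and an effective length of 796 bases, against 2473 to 2506 bases in the other 10 embryos. The gene overlaps at its 3′ end with Nme7 on the opposite strand, which was at 3.51 to 17.7 TPM. As the libraries carry no strand, reads from the overlap cannot be told apart.

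Slc9a3 (ENSMUSG00000036123.8, chromosome 13 from 74121457 to 74169442, plus strand), the apical exchanger NHE3 of kidney and intestine, was not detected above the counting floor. It had 3 expected counts in control replicate 4, 1 in mutant replicate 1 and 0 in the other 9 libraries. A count of 0 allows up to 3 counts, which is 0.363 to 0.849 CPM (counts scaled to a common library total) in these libraries (counting error only).

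Aqp8 (ENSMUSG00000030762.11, chromosome 7 from 123462291 to 123468004, plus strand) was likewise not detectable at this depth. It had 2 expected counts in control replicate 1, 1 in mutant replicate 1 and 0 in the other 9 libraries. No fold change is given for Slc9a3 or Aqp8, since both groups lay at or under the floor of 3 counts per library.

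Aqp9 (ENSMUSG00000032204.13, chromosome 9 from 71110659 to 71168682, minus strand) had the highest median TPM of the water channels over all controls, although in the controls of batch 2 its mean (45.7 TPM) was below that of Aqp11 (53.2 TPM). Of those controls, Aqp9 was the lower in replicate 1 (39.1 against 87.1 TPM) and the higher in replicates 2 and 3. Control embryos had 39.1, 68.5 and 110 TPM as the lowest, median and highest value, and mutants had 34.3, 41.2, 66.1, 67.1 and 84.8 TPM. It stood above 76.7% of the genes expressed in all controls. It overlaps Gm47268 and Gm32511 on the opposite strand, which reached at most 0.70 and 2.03 TPM.

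Aqp11 (ENSMUSG00000042797.9, chromosome 7 from 97724006 to 97738289, minus strand) came next. Controls had 27.6, 46.0 and 87.1 TPM as the lowest, median and highest value, and mutants had 50.1, 28.6, 31.8, 26.4 and 48.8 TPM. The groups overlapped, with 2 mutants above the control median and 1 below every control.

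Aqp3 (ENSMUSG00000028435.8, chromosome 4 from 41092722 to 41098183, minus strand) varied widely between embryos of the same genotype. Control replicates 1 to 6 had 1.28, 32.8, 19.9, 23.6, 36.2 and 9.15 TPM, and mutants 18.6, 6.05, 19.3, 14.8 and 24.3 TPM. The lowest control rested on 13 counts and the highest on 197. The SD of the TPM over controls, divided by its mean, was 0.803 for Atp1b1, 0.657 for Aqp3, 0.424 for Aqp9, 0.434 for Aqp11 and 0.227 for Atp1b3.

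Neighbours in the order of levels were compared within each embryo. Atp1b3 exceeded Aqp9 in 6 of 6 controls and 5 of 5 mutants, and the control ranges did not overlap. Aqp9 exceeded Aqp11 in 5 of 6 controls and 4 of 5 mutants, with overlapping ranges, so these levels did not differ beyond their spread. Aqp11 exceeded Aqp3 in all 11 embryos and Aqp3 exceeded Atp1b1 in 10 of 11, again with overlapping control ranges. Atp1b1 lay above both Slc9a3 and Aqp8 in every embryo.

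Among aquaporins, 3 of 12 (Aqp3, Aqp9 and Aqp11) were expressed, and the other 9 stayed under 1 TPM in all embryos. Aqp9 supplied 30.6% to 73.5% of the summed aquaporin TPM in controls and 33.2% to 61.7% in mutants. Aqp11 supplied 19.7% to 68.1% in controls, and in control replicate 1 and mutant replicate 1 it exceeded Aqp9. The summed aquaporin TPM averaged 143 ± 36.3 in the 6 controls and 113 ± 29.8 in the 5 mutants (SD).

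Mutants and controls were then compared with DESeq2 over all genes, with batch as a covariate. No member passed the threshold of an adjusted p under 0.05. Of the 5 members tested, 0 were called, against 151 of 10448 genes (1.45%) in this comparison. An unadjusted p under 0.05 was found for 2 of the 5 (Atp1b3 and Aqp11), against 1248 of all genes tested. The edgeR quasi-likelihood test also called 0 members, and 32 of 11798 genes. The median log2 fold change of the 5 was -0.26, with 4 negative, and that of all genes tested was -0.0012. In whole embryos, a smaller share of cells with a transcript and less of that transcript per cell cannot be told apart. Some of the marker genes also moved with genotype. Of the trophectoderm list 3 of 7 genes were tested, all with positive fold changes (median 1.36 on the log2 scale), and Krt18, an epithelial keratin, was called higher in mutants (1.85, SE 0.47, DESeq2 adjusted p 0.0148), a call lost in edgeR (adjusted p 0.192) and in each batch alone. For the 8 blastomere markers the median was 0.38 on the log2 scale, 7 were positive and 5 were at an unadjusted p under 0.05. Of these, Klf5 was called higher (0.84, SE 0.14, DESeq2 adjusted p 1.07e-06), in edgeR too (adjusted p 0.00853). Klf5 was also called in batch 1 alone, but not in batch 2 alone (0.72, DESeq2 adjusted p 0.190). The summed TPM of the trophectoderm list was 5.66 to 12.6 in controls and 9.68 to 30.7 in mutants. Their part in the values of the members was not tested.

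The 6 controls averaged 1733 ± 419 normalised counts of Atp1b3 and the 5 mutants 1203 ± 210 (SD). DESeq2 gave a log2 fold change of -0.54 (SE 0.19, adjusted p 0.153), a fold of 0.689 with a 95% interval of 0.530 to 0.895. The value was -0.48 in batch 1 and -0.58 in batch 2. In batch 1 both mutants (1084 and 1260) lay below the 3 controls (lowest 1331). In batch 2 mutant replicate 1 (1539) lay above control replicate 3 (1368), and the other 2 mutants (1000 and 1130) lay below all controls.

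Normalised counts of Aqp11 averaged 251 ± 93.0 over the 6 controls and 165 ± 45.4 over the 5 mutants (SD). The log2 fold change by DESeq2 was -0.62 (SE 0.28, adjusted p 0.341). The value was -0.58 in batch 1 and -0.65 in batch 2, and the groups overlapped in both. It was -0.41 with the effective length as an offset and -0.38 without control replicate 1, which had the highest count (415). The same library had the highest Atp1b3 count (2437), and without it the Atp1b3 value was -0.40 (DESeq2 adjusted p 0.433). It also had the highest summed blood markers (137 TPM, of which Lyz2 was 121), whose part in these values was not tested.

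Atp1b1 was the only tested member with a positive fold change. Controls averaged 39.5 ± 36.8 normalised counts (SD, n = 6) and mutants 64.5 ± 25.2 (SD, n = 5), and DESeq2 gave a log2 fold change of 0.80 (SE 0.46, adjusted p 0.513). The value was 1.42 in batch 1, where both mutants (36.2 and 52.2) lay above the 3 controls (5.38 to 23.0), and 0.34 in batch 2, where the groups overlapped.

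Aqp9 and Aqp3 showed the smallest fold changes. For Aqp9 the log2 fold change was -0.14 ± 0.21 (SE) and the fold 0.908, with a 95% interval of 0.683 to 1.21. The value was -0.39 in batch 1 and 0.067 in batch 2. For Aqp3 it was -0.26 ± 0.68 (SE), and its interval (fold of 0.332 to 2.09) was the widest of the 5 on the log2 scale. The direction for Aqp3 was opposite, at 0.09, without control replicate 2. The adjusted p (DESeq2) was 0.888 for Aqp9 and 0.941 for Aqp3.

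None of the 5 members had mutants apart from controls in the same direction in both batches, an outcome seen for 2.74% of 10489 genes. The interaction of batch and genotype passed the threshold for 0 members, against 4 of 10472 genes (0.0382%). No member had an unadjusted interaction p under 0.05, and the edgeR interaction test called 0 of 12740 genes. The plot of fold changes shows that the intervals for batch 1 and batch 2 overlapped for each member.

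**Figure D2:**
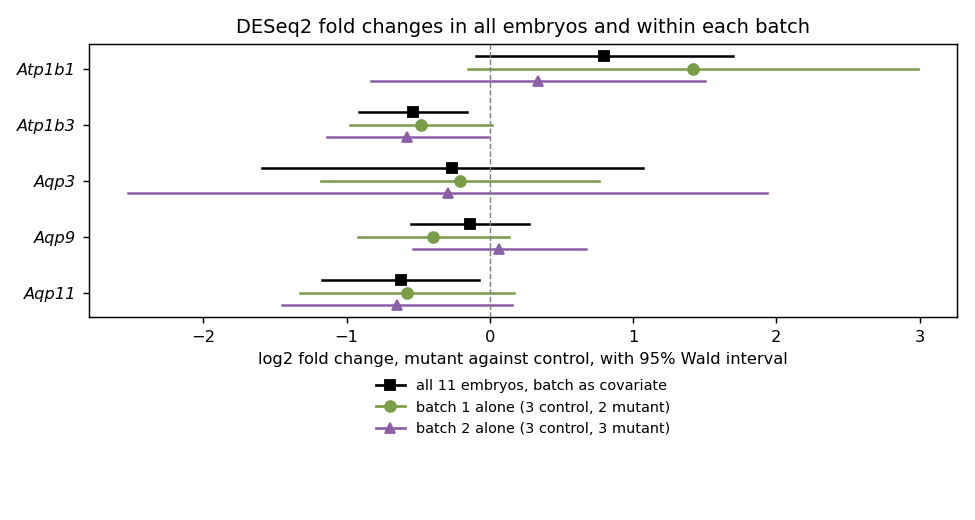
DESeq2 log2 fold change, mutant against control, with 95% Wald intervals for the 5 tested members, in all 11 embryos with batch as a covariate (black), in batch 1 alone (green) and in batch 2 alone (purple). The intervals over all embryos lie below 0 for Atp1b3 and Aqp11 before adjustment over all genes, and those of Atp1b1, Aqp3 and Aqp9 include 0.

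The batches were compared in the same fit. Atp1b1 and Aqp9, 2 of the 5 tested members, differed between them, against 2911 of 10448 genes (27.9%), so a call for batch was common among all genes. Atp1b1 averaged 27.5 ± 17.6 normalised counts (SD, n = 5) in batch 1 and 70.3 ± 30.9 (SD, n = 6) in batch 2, which DESeq2 estimated as a log2 difference of 1.39 (SE 0.46, adjusted p 0.0154). Aqp9 went the other way, with 967 ± 218 (SD, n = 5) in batch 1 and 596 ± 146 (SD, n = 6) in batch 2, and a log2 difference by DESeq2 of -0.67 (SE 0.21, adjusted p 0.00925). Mutant replicate 3 (852) was the highest embryo of batch 2 for Aqp9 and lay within the range of batch 1 (723 to 1198). The call for Atp1b1 was lost without control replicate 2, which had the highest count (104). Mutant replicate 1 had nearly the same count (104), and without it the call was kept (DESeq2 adjusted p 0.0379). Ovgp1 and Lyz2 were also higher in batch 2 and Amhr2 in batch 1, as given above, and the part of these markers in the Atp1b1 and Aqp9 differences was not tested. For Atp1b3, Aqp3 and Aqp11 the log2 differences between batches were 0.11, -0.15 and 0.17 and did not pass.

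**Figure D3:**
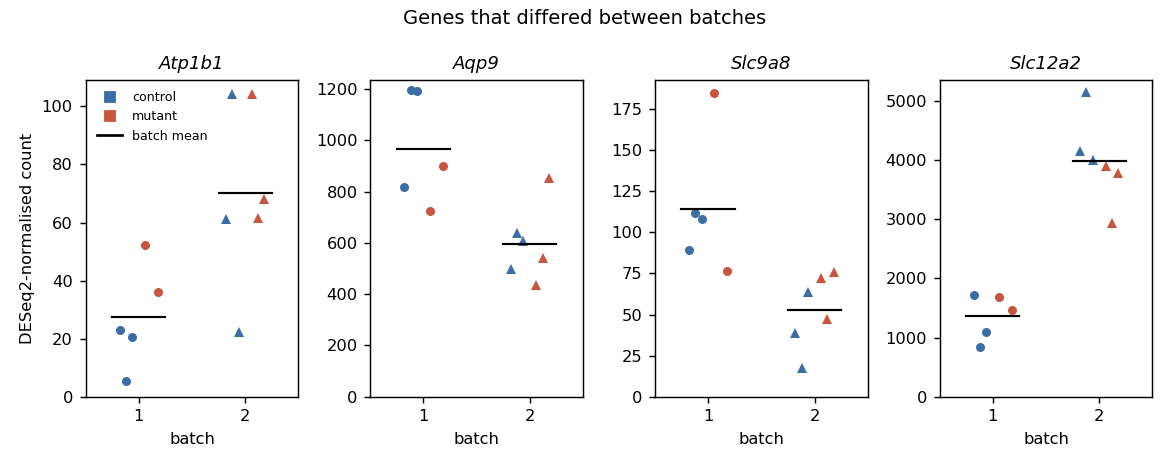
DESeq2-normalised counts by batch for the 2 members called for batch and the 2 further transport genes called for it, 1 point per embryo, controls in blue and mutants in red, with a black line at the mean of each batch. Atp1b1 and Slc12a2 are higher in batch 2 (13 cycles), Aqp9 and Slc9a8 in batch 1 (16 cycles).

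The partners of the members in ion transport were read from a list of 39 further genes. Of these, 7 were expressed in all controls and 9 were tested. None passed the threshold (adjusted p under 0.05) in DESeq2, 3 had an unadjusted p under 0.05, Fxyd4 among them, and edgeR called 0. Their median log2 fold change was -0.016, with 5 negative and 4 positive.

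Among the beta subunits of the pump, Atp1b3 supplied 94.1% to 97.7% of the summed TPM in controls and 93.4% to 95.9% in mutants. The summed beta TPM averaged 201 ± 44.0 over the 6 controls and 141 ± 26.9 over the 5 mutants (SD), and the groups overlapped. The ratio of Atp1b3 to Atp1b1 TPM ranged from 20.8 to 125 in controls and from 19.2 to 38.4 in mutants. It was not tested, and the highest control value was that of replicate 6. Atp1b2, a further beta isoform, averaged 3.79 ± 1.36 TPM over controls and 2.09 ± 0.64 over mutants (SD), and its log2 fold change was -0.70 (SE 0.43, DESeq2 adjusted p 0.545).

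**Figure D4:**
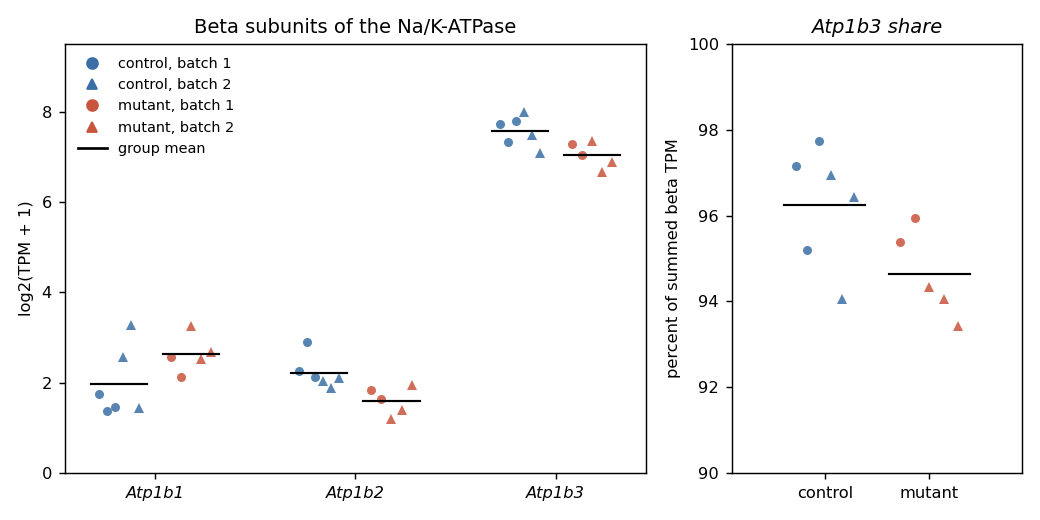
Left, log2(TPM + 1) of the 3 expressed beta subunits of the Na/K-ATPase in each embryo. Right, the share of the summed beta TPM held by Atp1b3 in percent, on an axis that starts at 90, with colours, symbols and mean lines as given in the key. Atp1b3 lies above the other beta subunits in every embryo, with a share of 93.4% to 97.7%.

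Among exchangers, Slc9a8, an exchanger of the Golgi and surface, averaged 7.14 ± 2.73 TPM over controls (SD, n = 6), where Slc9a3 was at 0 in 5 of 6. It was lower in batch 2 by a log2 difference of -1.18 (SE 0.35, DESeq2 adjusted p 0.00531).

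Fxyd4, a small regulator of the pump, averaged 5.13 ± 4.09 TPM over controls and 23.3 ± 30.0 over mutants (SD), with 75.2 TPM in mutant replicate 3. The log2 fold change was 2.14 (SE 0.77, DESeq2 adjusted p 0.161), and it was called in batch 2 alone (3.39, adjusted p of 0.0332). In batch 1 the value was 0.37 (SE 1.13), and mutant replicate 4, at 1.53 TPM, lay below the 3 controls of that batch. Slc12a2, the NKCC1 cotransporter that brings in sodium with potassium and chloride, averaged 90.9 ± 54.3 TPM over controls and 88.1 ± 31.8 over mutants (SD). It was higher in batch 2 by a log2 difference of 1.55 (SE 0.21, DESeq2 adjusted p 2.35e-11), and its genotype fold change was -0.016 ± 0.21 (SE) on the log2 scale. The genotype value was 0.37 in batch 1, where the groups overlapped, and -0.32 in batch 2, where all mutants lay below all controls.

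The effective length that RSEM assigns to a gene is a mean over its transcripts, weighted by how reads were divided among them. For Aqp11 it averaged 1105 ± 109 bases over the 6 controls and 947 ± 78.4 over the 5 mutants (SD). In batch 1 the controls had 1136, 1154 and 1273 bases and the mutants 1084 and 897. In batch 2 the controls had 959, 1081 and 1025 bases and the mutants 936, 927 and 894. The mutants were shorter than every control of their batch in both batches. Among 10489 genes, 121 (1.15%) were apart in this way, 47 of them shorter in mutants. None of the other 4 tested members was. This gene has annotated coding transcripts of 896 and 3737 bases, and other annotated transcripts of 201, 576 and 5798 bases. The split of reads from 1 end of short fragments among them is an estimate. The plot of Aqp11 by batch sets the effective lengths beside the counts, which overlapped between genotypes.

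**Figure D5:**
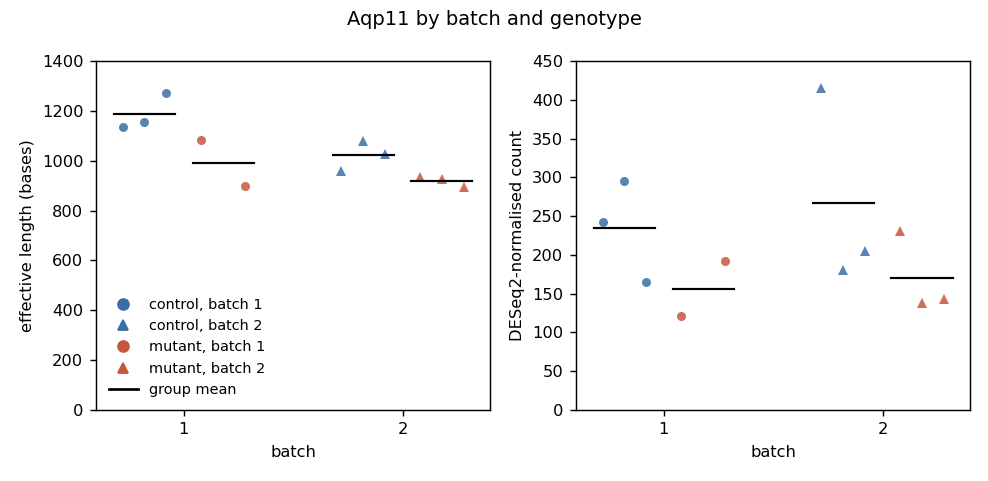
Left, effective length of Aqp11 in bases, and right, its DESeq2-normalised count, by batch and genotype, 1 point per embryo with black lines at the group means. The lengths of mutants lie below those of controls within each batch, by a small margin in batch 2 (936 against 959 bases), and the counts overlap.

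The genes whose profiles over the 11 embryos lay nearest to each member were found by the root mean square (RMS) difference of log2(normalised count + 1), after each gene was centred within its batch. The search covered 10489 genes. For Atp1b3 they were Ckap5 (0.12) and Zfp143 (0.15), against an RMS of 0.37 for Atp1b3 itself. For Aqp9 they were Psmb10 (0.17) and Brms1 (0.18), against 0.30. For Aqp11 they were 4930453N24Rik (0.19) and Cdc7 (0.21), against 0.49. For Atp1b1 they were Ano6 (0.39) and Gm14300 (0.46), against 0.88, and for Aqp3 Fbxo16 (0.47) and Mad1l1 (0.48), against 1.21. No member was nearest to another. These distances describe likeness only. None of the 7 members was in the study's list of genes bound by PRDM10 in mouse embryonic stem cells. That list holds a small part of all genes, so the absence of the members from it says little.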

How the data were processed

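Single-embryo libraries had been sequenced from 1 end. Per the labels and the study's methods, the authors mapped reads to GRCm38.p6 with STAR (version 2.6.0c) and quantified genes with RSEM against GENCODE. The deposited tables give, for each gene and embryo, an expected count estimated by RSEM, a TPM, which sums to the same total in each library, and an effective length. A further deposited table holds the authors' own comparison (mean normalised count, log2 fold change, SE, Wald statistic, p and adjusted p) and was not used. No molecular identifiers were used, so PCR copies were counted separately.

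Expected counts were rounded and tested with the DESeq2 (version 1.42.0) Wald test in R (version 4.3.3), with batch and group as terms, unshrunken fold changes and Benjamini-Hochberg adjustment over all genes. A gene was called at an adjusted p under 0.05 if its mean normalised count exceeded 10. The sign of a batch difference is batch 2 minus batch 1. Symbols, positions and overlaps came from GENCODE for that build. Intervals are 95% Wald intervals and floors are 3 counts. The tests were checked on simulated counts. edgeR (version 4.0.16) and limma (version 3.58.1) on log2(TPM + 1), with a pseudocount of 1, were alternatives, as were other normalisations and filters, no batch term, each batch alone, an effective-length offset and each embryo left out. Named genes were the members, Prdm10, listed transport genes that were called or had a median control TPM of at least 1, and the 2 nearest profiles of each tested member. Marker genes are named as checks. Some of the listed transport genes are not reported here. The members and lists were chosen with earlier results of these data known. Replicates were numbered in order within groups, so the numbers pair no embryos.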

Additional observations from a re-analysis of the deposited data

Results flagged for a closer look

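The counts, TPM and effective lengths of the 5 detectable members, with the Atp1b3 share of beta TPM, were screened for embryos far from the rest of their group. Chance alone would single out about 1 in 20 of the 32 groups of values screened, and 5 were singled out, all of them effective lengths. For Atp1b1 control replicate 5 had 796 bases, against 2505.94 to 2506.05 in the other controls, and mutant replicate 5 had 2473 bases, against 2505.95 to 2506.08. For Atp1b3 control replicate 6 had 1906 bases, against 1919.94 to 1920.05 in the other controls. For Aqp3 mutant replicate 5 had 1669.8 bases, against 1690.95 to 1691.08. For Aqp11 mutant replicate 4 had 1084 bases, against 894 to 936 in the other mutants, which still lay below the controls of its batch. Apart from Atp1b1 in control replicate 5, which had 4.10 counts, and Aqp11, these gaps were small beside the length of the transcript.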

How the results depend on the processing

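No member was called between mutants and controls in any alternative run. The fold changes of Atp1b1, Atp1b3 and Aqp11 kept their direction throughout. The log2 fold change of Aqp3 (-0.26) was 0.12 with limma on log2(TPM + 1), and it ranged from -0.53 to 0.091 over fits without 1 embryo, the latter without control replicate 2. That of Aqp9 (-0.14) was 0.067 in batch 2 alone and ranged from -0.32 (without mutant replicate 3) to -0.038 (without mutant replicate 4). Listed transport genes were called in 0 cases with all embryos, in 1 (Fxyd4) in batch 2 alone and in 0 to 2 without 1 embryo, with Fxyd4 (2.77, DESeq2 adjusted p of 0.0218) among the 2 without mutant replicate 4. Members called for batch numbered 1 to 2 without 1 embryo, with Aqp9 the one left without control replicate 2, and edgeR called both Atp1b1 (adjusted p of 0.0463) and Aqp9 (0.0278). With 5 TPM in place of 1 TPM as the minimum, 3 members were expressed in place of 5, and with an expected count of at least 10 in all controls 4 were. Causes of these shifts were not tested. The count over all genes was 151 in DESeq2, 32 in edgeR and 22 in limma, 51 with no batch term, 78 in batch 1 and 48 in batch 2 alone, 79 with no independent filtering, and 90 to 265 without 1 embryo. No paired analysis was possible because the labels carry no replicate numbers. With 2 to 3 embryos per genotype and batch, differences smaller than the intervals given, such as those of Aqp3, were not detectable.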
